A study of Mus musculus with 8 samples.

Results

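The genes described here carry out antigen presentation: the class I heavy chains H2-D1 and H2-K1, their partner B2m, the peptide transporter gene Tap1, the class I-like gene Cd1d1, the class II chains H2-Aa, H2-Ab1 and H2-Eb1, and the invariant chain gene Cd74. All probe sets whose only annotated gene symbol was one of these 9 genes were taken, which gave 14 of the 12488 probe sets on the array. Of them, 9 probe sets of 7 genes passed the filter on dim probe sets and were tested, among 7453 tested in all. The only probe sets of H2-Aa and H2-Ab1 did not pass it, so for these genes values are given without a test. The tips of secondary alveolar septa, cut by laser capture from frozen lung sections of C57/Bl6 mice at postnatal day 6, were compared with pooled whole lung of the same strain and age. There were 2 RNA samples per group, each from an experiment with different litters and each hybridised to 2 arrays, so 8 arrays in all. The tip RNA came from many mice and the lung RNA from pooled tissue, so neither carries a spread between animals. Groups were read from the titles, since a description field calls the tip samples whole lung. The tips are part of the lung they were set against, and they hold epithelial, endothelial, mesenchymal and blood-derived cells.

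Class I molecules sit on nearly all nucleated cells and show peptides of the cell's own proteins to CD8 T cells. The heavy chain folds with beta-2-microglobulin, and peptides cut by the proteasome enter the endoplasmic reticulum through the transporter that Tap1 helps to form. Class II molecules show peptides taken up from outside to CD4 T cells. In the lung they are made by dendritic cells, macrophages and B cells, and also by alveolar type II cells. The invariant chain, Cd74, guards the class II groove until lysosomal proteases such as cathepsin S remove it. CD1d, made by Cd1d1, resembles class I and pairs with beta-2-microglobulin, but shows lipids to natural killer T cells. Mice of the b haplotype, which the C57BL/6 strain carries, make no complete E molecule because H2-Ea is defective, although H2-Eb1 is intact.

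The promoters of H2-K1, H2-D1, H2-Aa and H2-Eb1 are shown because the first pair are near copies whose transcripts share array probes, and the second pair are the class II chains with an annotated start in the table. Each run is the 250 bases before the transcription start on GRCm38.p6, from RefSeq, read 5′ to 3′ on the strand of the gene. Of the 9 genes, 6 had a window in the table. Capitals mark any of the 3 motifs searched on both strands, which were chosen after the sequences had been read: CCAAT, the core of Y boxes, TGACG, the core of X2 boxes, and TTTCNNTT, the core bound by interferon regulatory factors.
H2-K1 (chr17:34000348-34000597, minus strand): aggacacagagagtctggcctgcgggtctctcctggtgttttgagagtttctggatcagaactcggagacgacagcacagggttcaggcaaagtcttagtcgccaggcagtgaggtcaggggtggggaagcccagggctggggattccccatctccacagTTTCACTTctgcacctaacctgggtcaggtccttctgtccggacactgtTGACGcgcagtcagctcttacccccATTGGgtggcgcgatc
H2-D1 (chr17:35262844-35263093, plus strand): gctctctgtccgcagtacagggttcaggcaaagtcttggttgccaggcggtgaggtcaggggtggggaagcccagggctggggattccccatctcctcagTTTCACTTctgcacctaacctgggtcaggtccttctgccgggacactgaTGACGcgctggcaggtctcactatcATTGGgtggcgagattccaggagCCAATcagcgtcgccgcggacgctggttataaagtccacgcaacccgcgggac
H2-Aa (chr17:34287824-34288073, minus strand): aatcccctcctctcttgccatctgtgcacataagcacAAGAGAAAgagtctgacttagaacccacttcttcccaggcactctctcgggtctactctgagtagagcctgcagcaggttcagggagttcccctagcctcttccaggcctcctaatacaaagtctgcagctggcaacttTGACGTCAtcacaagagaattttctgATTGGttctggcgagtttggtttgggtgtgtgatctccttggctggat
H2-Eb1 (chr17:34305617-34305866, plus strand): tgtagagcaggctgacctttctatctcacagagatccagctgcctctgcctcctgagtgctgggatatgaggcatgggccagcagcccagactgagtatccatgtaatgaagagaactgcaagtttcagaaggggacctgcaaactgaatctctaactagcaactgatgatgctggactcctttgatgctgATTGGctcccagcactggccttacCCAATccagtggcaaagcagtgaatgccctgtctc

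H2-K1 and H2-D1 aligned over 177 columns with 91.0% identity in a local alignment, while H2-Aa and H2-Eb1 aligned over 35 columns with 68.6%. CCAAT was in all 4 runs, against 33.8% of the 32851 windows of the same length in the table, and TGACG in H2-K1, H2-D1 and H2-Aa, against 17.8%. TTTCNNTT stood in H2-K1, H2-D1 and H2-Aa, against 21.3%. The 2 TGACG matches in H2-Aa overlap as TGACGTCA, which reads the same on both strands. These matches describe the letters in the windows and were tied to no signal on the arrays.

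On all arrays the authors' scaled signals had a similar trimmed mean, but dim probe sets were brighter in tips. The background level, taken on each array as the 95th percentile of 19 probe sets for bacterial and yeast transcripts, lay between 487 and 1244 on tip arrays and between 314 and 568 on lung arrays. Array 2 of the tip RNA of experiment 1 had the level of 1244. Arrays of the same RNA differed with an SD of 0.99 and 0.72 on the log2 scale for the tip RNAs of experiments 1 and 2, and of 0.58 and 0.53 for the lung RNAs. In the comparison of tips with lung by limma, 28.3% of all probe sets passed an adjusted p (Benjamini-Hochberg) of 0.05, 14.5% higher and 13.7% lower in tips, and the median log2 difference was 0.35. All differences below are tips minus lung on log2(signal + offset of 150), with a standard error and n = 2 RNA samples per group. Adjusted p-values are from limma over the 7453 probe sets.

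Tips carried less signal for Cd1d1 than whole lung, and Cd1d1 was the only one of these genes with a called difference. Of the 9 probe sets tested, 0 passed as higher and 1 as lower in tips, beside the 14.5% and 13.7% of all probe sets. The other probe sets differed by -0.01 to 0.95 without passing. The median over the 9 was 0.43, close to the 0.35 over all probe sets. Of the 9, 7 were above 0, beside 4630 of all 7453. At an unadjusted p under 0.05 there were 2 of the 9, Cd1d1 and a probe set of H2-D1, beside 3251 of all 7453. The groups did not overlap on the 8 arrays for 2 of the 9, 1 higher and 1 lower in tips, while 42.0% of all probe sets tested did not overlap.

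**Figure D1:**
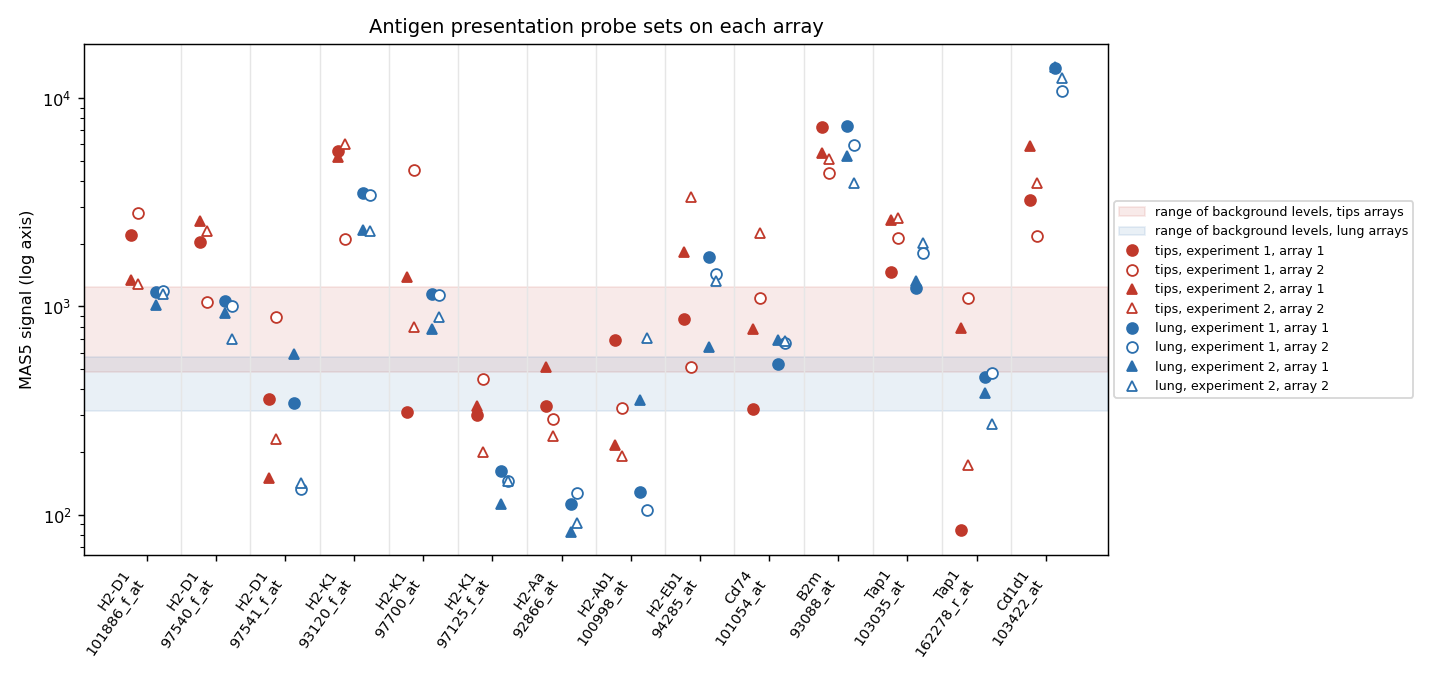
MAS5 signal (log axis) of the 14 probe sets on each array, tips in red left of lung in blue, circles for experiment 1 and triangles for experiment 2, filled for array 1 and open for array 2. Shaded bands span the background levels of the tip arrays (487 to 1244) and of the lung arrays (314 to 568). Cd1d1 is lower on all 4 tip arrays, and the probe sets of H2-Aa and H2-Ab1 lie in or under the bands.

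Cd1d1 (chromosome 3) had signals of 3233 and 2180.5 in the tips of experiment 1 and of 5894 and 3922 in those of experiment 2. The lung signals were 13932 and 10842 in experiment 1 and 14071 and 12494 in experiment 2. Every tip array was thus under every lung array, and both groups were above background on all arrays. The mean was 3807 ± 1557 in tips and 12835 ± 633 in lung (SD, n = 2). Cd1d1 thus fell by 1.79 ± 0.34 on the log2 scale, which is 3.46-fold (limma adjusted p = 0.00685). The 95% interval ran from -2.56 to -1.02. Experiment 1 gave -2.15 and experiment 2 gave -1.43. Array 1 of each RNA alone gave -1.65 and array 2 gave -1.94. Relative to the median of all probe sets it was -2.14. The call held with quantile normalization (-1.51), median centring (-2.43) and cyclic loess (-1.34). Without the lung RNA of experiment 1 the adjusted p was 0.0575, at -1.84, and without that of experiment 2 it was 0.0560, at -1.74. In bulk samples, fewer cells of a type and less RNA per cell cannot be told apart.

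Cd1d2, the near copy that lies beside Cd1d1, also fell in tips at its own probe set. Its signals were 1069 and 186 in the tips of experiment 1 and 109 and 357 in those of experiment 2, against 823 and 1132 in the lung RNA of experiment 1 and 1531 and 1441 in that of experiment 2. One tip array lay among the lung arrays, and the other tip arrays were under background. The difference was -1.49 ± 0.48 (limma adjusted p = 0.0451), and it passed in 10 of 17 alternatives. It did not pass without either lung RNA (adjusted p = 0.202 and 0.364). Another probe set, annotated to both Cd1d1 and Cd1d2, had signals of 2338 and 2989 in the tips of experiment 1 and 4129 and 5324 in those of experiment 2, against 2458 to 3078 on the lung arrays. It differed by 0.34 ± 0.35 (adjusted p = 0.469), so the probe sets of the Cd1d genes did not all differ in one direction.

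**Figure D2:**
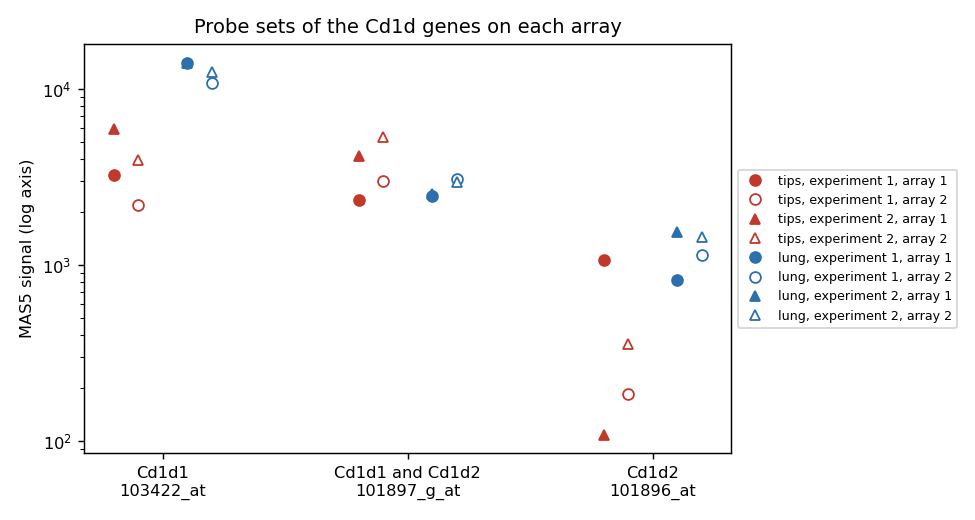
MAS5 signal (log axis) of the 3 probe sets of Cd1d1 and Cd1d2 on each array, tips in red left of lung in blue, markers as defined in the legend. Cd1d1 lies between 2180.5 and 5894 on tip arrays and between 10842 and 14071 on lung arrays, and the probe set annotated to both genes overlaps between the groups.

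The class I heavy chains had 6 probe sets, and none was called. The first f_at probe set of H2-D1 (chromosome 17) had signals of 2206 and 2823 in the tips of experiment 1 and 1335 and 1279 in those of experiment 2, against 1178, 1189.6, 1017.5 and 1144 in lung. All tip arrays were above all lung arrays, as for 24.1% of all probe sets tested. The difference was 0.62 ± 0.39 (limma adjusted p = 0.251). A second f_at probe set had tip signals of 2048 and 1051 in experiment 1 and 2579.6 and 2290.1 in experiment 2, against 1065, 999, 931 and 694 in lung. Here the tip array with 1051 lay within the lung range, and the difference was 0.95 ± 0.38 (adjusted p = 0.0900). The larger difference came from experiment 1 at the first probe set (0.99, against 0.25 in experiment 2) and from experiment 2 at the second (1.43, against 0.46 in experiment 1). Without the tip RNA of experiment 2 the first passed, at 1.05 (adjusted p = 0.0219), and without that of experiment 1 the second passed, at 1.28 (0.0144). The remaining one was above background on 1 of the 8 arrays, a lung array, and was not tested.

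The brightest probe set of H2-K1 (chromosome 17), an f_at one, had signals of 5568 and 2112 in the tips of experiment 1 and 5214 and 6017 in those of experiment 2, against 3486 and 3409 in the lung of experiment 1 and 2319 and 2292 in that of experiment 2. The array with 2112 was under every lung array and the other tip arrays were over every lung array. The difference was 0.61 ± 0.35 (limma adjusted p = 0.209), made up of 0.00 in experiment 1 and 1.23 in experiment 2. Without the array of highest background, which is the one with 2112, it was 0.95 ± 0.32 (adjusted p = 0.0650). Another probe set without a shared-probe suffix gave 310.4 and 4493 on the arrays of the same tip RNA of experiment 1, a 14.5-fold ratio, and 1376 and 796 in experiment 2, against 777 to 1142 in lung. Its difference was 0.24 ± 0.38 (adjusted p = 0.648), and the sign changed under 5 of 18 alternatives. The arrays of the lung RNAs were within 1.14-fold of each other there. The remaining probe set, also an f_at one, was under background on all 8 arrays.

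Of the 14 probe sets, all 3 of H2-D1 and 2 of H2-K1 had names ending in f_at, which mark probes that other transcripts can share. For Tap1, 1 name ended in r_at, and this probe set was not counted among them and was not tested. Of the f_at ones, 3 were tested. The 3 differed by 0.61, 0.62 and 0.95, and the 6 tested ones without such a suffix by -1.79 to 0.44. Over all probe sets tested, the median difference was 0.47 for names with any such letter before at, r_at included, and 0.31 for the others. A further 4 probe sets were annotated to several genes that included a member. Besides that of Cd1d1 and Cd1d2, one listing H2-K1 with H2-Q7, H2-Q9 and H2-Q10 had 2204 to 3337 on tip arrays and 957 to 1879 on lung arrays, with no overlap, and differed by 0.81 ± 0.32 (adjusted p = 0.0825). One listing 10 genes with H2-K1 and H2-D1 among them differed by 0.93 ± 0.56 (adjusted p = 0.222), and one listing H2-D1 with H2-Q genes was not tested.

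B2m (chromosome 2), the light chain of all class I molecules and of CD1d, had signals of 7242 and 4378 in the tips of experiment 1 and 5422 and 5093 in those of experiment 2, against 7366 and 5948 in the lung of experiment 1 and 5260.1 and 3908 in that of experiment 2. The groups overlapped throughout. The mean was 5534 ± 391 in tips and 5620.5 ± 1466 in lung (SD, n = 2), a difference of -0.01 ± 0.31 (limma adjusted p = 0.983). The 95% interval of -0.71 to 0.69 leaves room for changes of either sign, and the sign changed under 6 of 19 alternatives. Tap1 (chromosome 17) had 1463 and 2120.0 in the tips of experiment 1 and 2591 and 2664 in those of experiment 2, against 1225 and 1800.3 in the lung of experiment 1 and 1331 and 2006 in that of experiment 2. The groups overlapped, and the difference was 0.43 ± 0.34 (limma adjusted p = 0.354, 95% interval -0.34 to 1.21). It was made up of 0.23 in experiment 1 and 0.64 in experiment 2. The other probe set of Tap1, an r_at one, gave 84.8 and 1095 on the arrays of the same tip RNA of experiment 1, a 12.9-fold ratio, and was not tested.

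**Figure D3:**
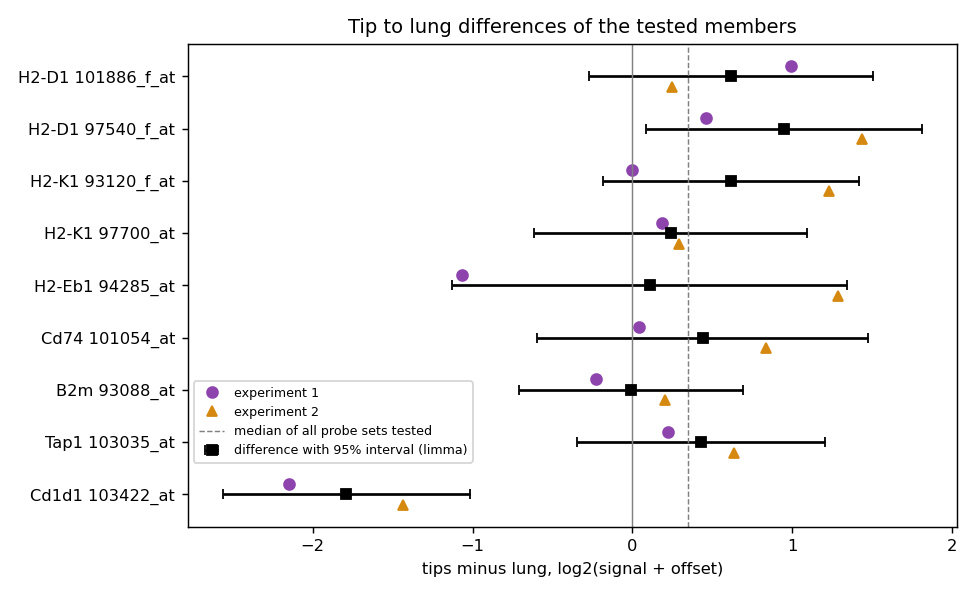
Tips minus lung on log2(signal + offset) for the 9 probe sets tested, with the limma difference and 95% interval as black squares and bars, and the difference in each experiment as circles (experiment 1) and triangles (experiment 2). The dashed line is the median of all probe sets, 0.35, and Cd1d1 at -1.79 lies apart from the others at -0.01 to 0.95.

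Of the class II genes, H2-Aa and H2-Ab1 were near background and were not tested, and H2-Eb1 and Cd74 had no called difference. H2-Aa (chromosome 17), the A alpha chain, had 331 and 288 in the tips of experiment 1 and 512 and 239 in those of experiment 2, against 113, 127, 82.7 and 91.5 in lung. All tip arrays were above all lung arrays, but 7 of the 8 arrays, all 4 of lung and 3 of tips, were under background. The signals of the background probe sets were themselves higher in tips, with medians of 121 to 332 on tip arrays against 66.9 to 97.3 on lung arrays, and their part in this difference was not tested. With no filter on dim probe sets its difference was 0.93 (adjusted p = 0.115). H2-Ab1, the A beta chain, had 692 and 325 in the tips of experiment 1 and 217 and 191 in those of experiment 2, against 128 and 105 in the lung of experiment 1 and 356 and 701 in that of experiment 2. Only a lung array, the one with 701, was above background. Its difference was 1.25 in experiment 1 and -0.89 in experiment 2.

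H2-Eb1, the E beta chain, was above background on all 4 lung arrays and on 3 of the 4 tip arrays. It had 873 and 513 in the tips of experiment 1 and 1814 and 3348 in those of experiment 2, against 1723 and 1437 in the lung of experiment 1 and 636 and 1324 in that of experiment 2. Tips were thus under lung in experiment 1, by -1.07, and over it in experiment 2, by 1.28. The difference over both was 0.11 ± 0.55 (limma adjusted p = 0.894), with a 95% interval of -1.13 to 1.34. Cd74 had 320.1 and 1098 in the tips of experiment 1 and 778 and 2259 in those of experiment 2, against 527, 670.1, 691 and 683 in lung. Its tip arrays spanned both sides of the narrow lung range, and 2 of them were above background. The difference was 0.44 ± 0.46 (adjusted p = 0.483), made up of 0.04 in experiment 1 and 0.84 in experiment 2. Array 2 gave 3.43 and 2.90 times the signal of array 1 for the tip RNAs, and 1.27 and 0.99 times for the lung RNAs. Array 1 alone gave -0.19 for Cd74.

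Over the 8 arrays, the genes whose log2 values correlated most with those of Cd74, among 5641 genes at their brightest probe set, were Itgb4, Synj2bp and Mvk, with Pearson r of 0.967, 0.965 and 0.949. For the first probe set of H2-D1 they were Ppp2r2b, Atp6v1e1 and H2-K2, a class I sequence annotated beside H2-K1, with 0.982, 0.969 and 0.963. These are descriptions over 8 arrays of 4 RNA samples, which share array and RNA effects.

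Of the other genes of these pathways, 2 that encode lysosomal cathepsins, Ctss and Ctsl, fell in tips. Ctss, which encodes cathepsin S and cuts the invariant chain, had 5184 and 3524 in the tips of experiment 1 and 4033 and 3419 in those of experiment 2, against 26699 to 43348 on the lung arrays. It fell by 3.05 ± 0.31 (limma adjusted p = 0.000950). Ctsl, the gene of cathepsin L, had 1202 to 2234 on tip arrays and 8439.9 to 11448 on lung arrays, and fell by 2.60 ± 0.29 (adjusted p = 0.00111). These were the 2 called of 12 probe sets tested from a list of class II loading, processing and transcription, 0 higher and 2 lower, with a median of 0.35. Lgmn, the gene of another lysosomal protease, gave 0.37 (adjusted p = 0.439). The regulator genes Ciita, Rfxank, Creb1, Nfya, Nfyb and Nfyc did not pass, at 0.78, 1.28, 1.27, 0.32, -0.56 and 0.60. Outside the rule for named genes, H2-DMa, part of the peptide exchanger of class II, was under background on all 4 tip arrays at its f_at probe set, with lung at least 2.04-fold brighter. It did not pass (limma adjusted p = 0.0601), but did when experiments were blocked (0.0431), as did H2-Oa, part of an inhibitor of that exchanger, at 1.42 ± 0.54 (0.0761, and 0.0434 when blocked). The other probe set of H2-DMa gave 0.63 and was not tested. H2-Ea was above background on 1 of the 8 arrays.

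Of 10 probe sets tested for other class I and class I-like genes, 2 rose and 2 fell in tips, with a median of 0.78. H2-M9 rose by 1.46 ± 0.40 and H2-M3, whose product shows formylated bacterial peptides, by 1.63 ± 0.44 (limma adjusted p = 0.0263 and 0.0265). All 4 lung arrays were under background for H2-M3, with tips at least 2.84-fold brighter at this probe set, while its other gave -0.25 (adjusted p = 0.621). H2-Q1 fell by 2.07 ± 0.56 (adjusted p = 0.0263), with 68.9 and 429 in the tips of experiment 1 and 1184 and 1148 in those of experiment 2, against 2166 to 3629 on the lung arrays. The name of its probe set carries the suffix of shared probes, and Cd1d2 was the other gene that fell. With quantile normalization, median centring or cyclic loess, 0 of the 10 rose and 2 fell.

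In class I peptide supply and loading, 1 of 9 probe sets rose and 0 fell, with a median of 0.01. Psmb10, a catalytic subunit of the immunoproteasome, had 2112 to 3540.4 on tip arrays and 484 to 1039.5 on lung arrays, and rose by 1.66 ± 0.34 (limma adjusted p = 0.00880). With median centring it did not pass, at 1.08 (adjusted p = 0.0580). Psmb8, another such subunit, gave -0.18 ± 0.38 (adjusted p = 0.743). Psmb9 was left out by the filter, with all 4 lung arrays under background and only 2 of the 4 tip arrays above it. Its at-least fold of 2.14 in favour of tips therefore rests in part on tip signals under background and is no firm lower limit. The 3 probe sets of Tapbp, the bridge between Tap1 and the heavy chain, gave 1.03, 0.01 and -0.75, none of which passed.

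Of 18 probe sets of interferon signalling, 3 rose and 1 fell, with a median of 0.36. The type I interferon receptor genes Ifnar1 and Ifnar2 rose by 2.31 ± 0.46 and 1.99 ± 0.42 (limma adjusted p = 0.00769 and 0.0102). All 4 lung arrays were under background for Ifnar1, with tips at least 3.46-fold brighter, and the probe set of Ifnar2 left out by the filter gave -1.10. Irf8, a transcription factor of myeloid cells, rose by 1.34 ± 0.31 (adjusted p = 0.0138), and the GTPase gene Iigp1, induced by interferon, fell by 0.90 ± 0.29 (0.0468). With median centring Ifnar2, Irf8, Cd40, H2-M3 and H2-M9 did not pass either, and with quantile normalization or cyclic loess Iigp1, H2-M3 and H2-M9 did not. Of 3 costimulation probe sets 1 rose: Cd40, by 1.30 ± 0.34 (adjusted p = 0.0233). Of the 12 probe sets called in these 5 lists, 2 passed without the lung RNA of experiment 1, Ctss and Ctsl, and the others had adjusted p between 0.0740 and 0.235. Without that of experiment 2, Ctss, Ctsl and Ifnar2 passed, and the others had adjusted p between 0.0598 and 0.364. With array 1 of each RNA alone, Cd1d2, H2-M3, H2-Q1, Ifnar1, Iigp1 and Psmb10 did not pass (adjusted p between 0.0508 and 0.309), and with array 2 alone Cd1d2, Cd40, H2-M9 and H2-Q1 did not (0.0628 to 0.0822). Without the array of highest background, Cd1d2, H2-M3, H2-Q1 and Iigp1 did not pass (adjusted p between 0.0512 and 0.259). Without the tip RNA of experiment 2, Iigp1 did not pass (adjusted p = 0.0643).

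**Figure D4:**
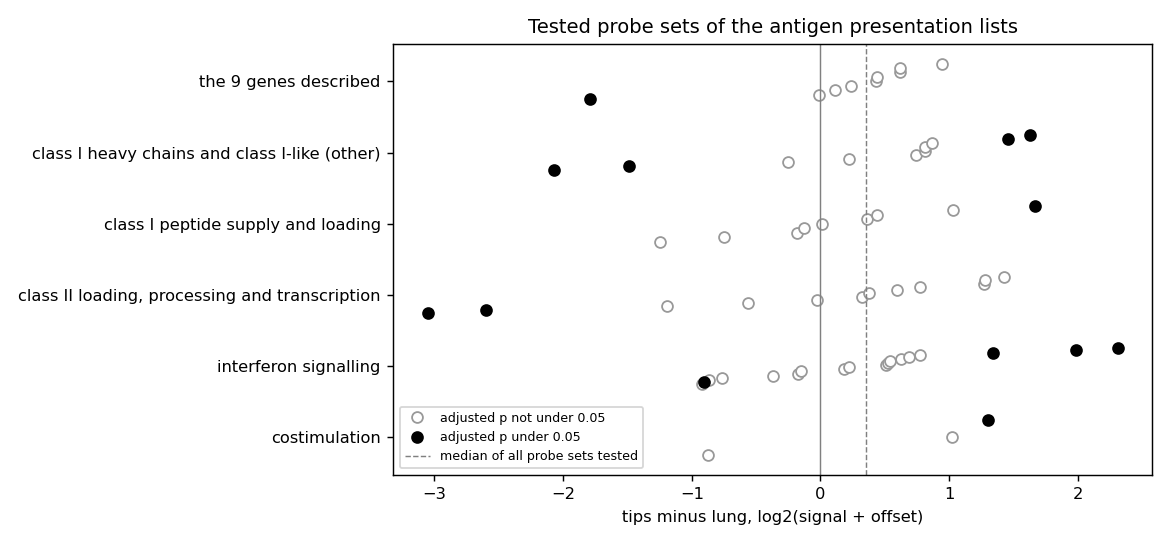
Tips minus lung on log2(signal + offset) for each tested probe set of the 9 genes described and of the lists of related genes, filled where the adjusted p was under 0.05. The dashed line is the median of all probe sets, 0.35, and the lists lie on both sides of it, with Ctss at -3.05 and Ifnar1 at 2.31 at the ends.

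The class I and class II genes lie together on chromosome 17. Between H2-K1 and H2-D1 in the RefSeq gene order, with the 9 genes left out, 44 probe sets of 37 genes were tested, of which 10 rose and 1 fell in tips (22.7% and 2.27%, beside 14.5% and 13.7% of all). Their median difference was 0.80. Without the genes of the 5 lists there were 40 probe sets, of which 10 rose and 1 fell, with a median of 0.81. Many genes there are unrelated to antigen presentation, and the order of genes was not used in any test.

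Markers of cells that make class II moved in both directions. Of 16 probe sets of macrophages and monocytes 0 rose and 3 fell (Ctss, Laptm5 and Mrc1), with a median of 0.49 and 10 above 0. With quantile normalization or cyclic loess 1 rose and 2 fell, and Laptm5 gave -0.65 and -0.57 without passing (limma adjusted p = 0.247 and 0.274). With median centring 0 rose and 4 fell, with a median of -0.12 and 5 above 0. The other probe set of Laptm5 gave 0.82. The summed signal of the 27 on the array was 55188 to 73843 on tip arrays and 99834 to 116596 on lung arrays. Without the brightest probe sets of Ctss and Laptm5, a choice made after the data were seen, the order turned, with 39141 to 52084 on tip arrays and 30532 to 39118 on lung arrays. Much of this remaining sum was the brightest probe set of Lyz2, with 15936 to 23883 on tip arrays and 10118 to 15478 on lung arrays. Lyz2 gave 0.60 and Csf1r 0.61 without passing, and 9 of the 27 probe sets, with Itgam, Marco and Aif1 among them, were above background on no array. The background was higher on tip arrays, and its part in these sums was not tested. Of 6 probe sets of dendritic cells 1 rose, an r_at one of Flt3, and 0 fell. With quantile normalization or median centring 0 rose and 1 fell, and with cyclic loess 1 rose and 1 fell. Their sums over 9 probe sets were 8490.4 to 11073 on tip arrays and 6148 to 6555 on lung arrays, and 2 of the 9 were above background on no array. The other tested probe set of Flt3 gave -0.31 (limma adjusted p = 0.648). Ly75 gave -1.33 (0.0514), and Xcr1 and Itgax gave 0.67 and 0.59, none of which passed.

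Of 10 probe sets of B cells 5 rose and 0 fell, and the summed signal of the 25 was 18426 to 27875 on tip arrays and 9627 to 11685 on lung arrays. With quantile normalization, median centring or cyclic loess, 1 of 9, 1 of 9 or 2 of 10 rose and 0, 1 or 1 fell. Of the 25, many were annotated to Ighm, 7 were above background on no array and 2 were above it on all arrays. Background was itself higher on tip arrays, and its part in the sums was not tested. The tested probe sets of Ms4a1 gave -1.20 and 0.70 without passing. Of 2 probe sets of T and NK cells 1 rose, Cd4, and it passed under none of the 3 other scalings. The pan-leukocyte gene Ptprc fell by 1.95 ± 0.41 (limma adjusted p = 0.00930), while Cd52 rose by 1.35 ± 0.43 (0.0435) but passed under none of the 3 other scalings. The probe set of Ptprc that fell was above background on 1 of the 4 tip arrays and on all 4 lung arrays. Other probe sets of Ptprc, under background on all arrays and not tested, gave 0.57 and 0.67. Of 6 probe sets of alveolar type II cells, with that of Cd74 among them, 1 rose, Sftpc by 1.95, and the others gave 0.42 to 0.90 without passing. With quantile normalization 1 of the 6 rose, with cyclic loess 3 and with median centring 1, and 0 fell under each. With median centring 3 of the 6 were above 0, with a median of -0.02. The sums of the 6 were 126268 to 147471 on tip arrays and 41158 to 59885 on lung arrays, and without Sftpc and Cd74 they were 27656 to 36981 on tip arrays and 18337 to 24125 on lung arrays.

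Markers of the other lung cells also moved both ways. Of 9 probe sets of endothelium 5 rose, by 1.20 (Cldn5) to 1.99 (Eng), and 1, Tek, fell by 1.72 ± 0.29. With quantile normalization 6 rose and 1 fell, with cyclic loess 7 rose and 1 fell, and with median centring 1 rose and 1 fell. Among the 3 for type I cells of the alveoli, 0 rose and Hopx fell by 1.76 ± 0.31, while Ager gave 0.89 without passing. With quantile normalization or cyclic loess 1 of the 3 rose and 1 fell, and with median centring 0 rose and 2 fell. Among the 13 for fibroblasts and myofibroblasts, 2 rose, Tagln by 1.97 and an f_at probe set of Col3a1 by 1.12, and Meox2 fell by 3.16 ± 0.42. With quantile normalization or cyclic loess 3 of the 13 rose and 1 fell, and with median centring 1 rose and 2 fell. The differences of Tek, Hopx and Meox2 passed under all 3 other scalings, as did that of Cd1d1. Those of Tie1 and Tagln, which rose by 1.94 and 1.97, also passed under all 3. With either lung RNA left out, Hopx and Meox2 still passed. Tek, Tagln, Eng, Pecam1, Icam2, Cldn5, Laptm5, Mrc1, Ptprc and the called B cell probe sets did not. Tie1 passed only without the lung RNA of experiment 1. Of 3 probe sets of airway epithelium 2 rose, while 1 did with quantile normalization, 2 with cyclic loess and 0 with median centring. No marker was listed at 0. The part of these markers in the values of Cd1d1, Cd74 and the class II genes was not tested.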

How the data were processed

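Values were linear intensities, 1 for each probe set and array, deposited by the authors and computed with MAS5 (version not stated), per the submitters' processing notes. The deposited arrays share a trimmed mean of about 1501. RNA was extracted with a PicoPure kit and amplified with a RiboAmp kit, per the labels' protocols. Labels mention amplification for every tip array but, among lung arrays, only for array 1 of experiment 1, whereas the design text says that both tissues were amplified side by side.

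Arrays were brought to 1 trimmed mean (2% left out at each end) and log2(signal + 150) was computed, the offset being 10% of this mean. This shrinks the ratio between any 2 arrays at dim probe sets, but averaged differences could move either way. With an offset of 16 the second f_at probe set of H2-D1 gave 1.04 against 0.95, and the H2-K1 probe set without a suffix 0.20 against 0.24. The 66 control probe sets and those with a mean log2 value under the 40th percentile were left out. Arrays of an RNA were averaged, and the 2 groups tested by limma 3.58.1 under R 4.3.3 (eBayes with an intensity trend, 2 residual and 7.05 prior degrees of freedom), which was tested on simulated data. The number of arrays limits the precision, and the median standard error was 0.40. Signals are printed as deposited, rounded. At-least folds set the brighter group's mean log2 signal against, per array of the dimmer group, the higher of background and signal. Of the probe sets, 10855 carried 1 symbol, 396 several and 1237 none here, and 10839 symbols were matched by gene ID to the RefSeq table.

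The members, gene lists and tests were chosen with earlier results of these data known. Named genes were the 9 genes, up to 4 called genes per list by smallest p, and the 3 closest patterns of Cd74 and H2-D1, and other genes named were chosen after their values were seen. The experiment number pairs the RNA samples, per the design text, which states parallel processing. Same-numbered samples had deviations from their group means that correlated at 0.0452. The alternatives were 3 other scalings and none, 2 offsets, 2 filters, a common floor, both blocks, each array alone, no trend and each RNA left out. Leaving out the array of highest background was added after the data were seen.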

Additional observations from a re-analysis of the deposited data

Results flagged for a closer look

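Of 28 groups of 4 arrays (14 probe sets, tips and lung), 2 held an array far from the others by Dixon's criterion on log2(signal + offset). Chance gives about 1 in 20 for 4 independent arrays, while each group here held 2 RNA samples with 2 arrays each. Signals below are linear. H2-K1, at its brightest probe set, had 2112.1 on array 2 of the tip RNA of experiment 1, against 5214 to 6017 on the other tip arrays. Cd74 had 527.2 on array 1 of the lung RNA of experiment 1, against 670.1 to 691 on the other lung arrays.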

How the results depend on the processing

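Over the 9 probe sets tested and 19 alternatives there were 167 values, of which 139 kept their sign and their side of the threshold. Cd1d1 kept its sign under all 19 and passed under 17, at -2.43 to -1.34. It was lost without either lung RNA, where the spread comes from the tip RNAs alone (adjusted p = 0.0575 and 0.0560). With the experiment number as a replicate block, 2452 probe sets passed, against 2106 without it, and no call among the 9 changed. With the array number as a replicate block and the RNA as a random block, 2556 passed. With array 1 alone 1229 passed, and with 1 RNA left out 349 (lung of experiment 1), 556 (lung of experiment 2), 2719 (tips of experiment 1) and 3324 (tips of experiment 2). With quantile normalization 608 rose and 1020 fell (median difference 0.03), after median centring 252 rose and 1604 fell (-0.23), and after cyclic loess 806 rose and 1156 fell (0.05), against 1084 and 1022. Signs of values that did not pass changed as follows. With quantile normalization the H2-K1 probe set without a suffix gave -0.12, H2-Eb1 -0.29, Cd74 -0.068 and B2m 0.27. With median centring H2-K1 gave -0.018 (brightest probe set) and -0.33 (probe set without a suffix), H2-Eb1 -0.47, Cd74 -0.10 and Tap1 -0.18. With cyclic loess the H2-K1 probe set without a suffix gave -0.19, H2-Eb1 -0.27, Cd74 -0.051 and B2m 0.34. With array 1 alone the H2-K1 probe set without a suffix gave -0.38, Cd74 -0.19 and B2m 0.0098, and with array 2 alone H2-Eb1 gave -0.0058. Without the array of highest background the H2-K1 probe set without a suffix gave -0.59 and B2m 0.17. With 1 RNA left out, H2-Eb1 ranged from -0.73 to 0.94, Cd74 from -0.044 to 0.92 and B2m from -0.28 to 0.26. The cause was not tested. The common floor of 1244 was applied to the probe sets above it on at least 4 arrays. Signal over background limits H2-Aa, H2-Ab1 and the dim probe sets of H2-D1, H2-K1 and Tap1.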
